A study of Mus musculus with 78 samples.

Results

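The carboxylesterases CES2A and CES2H, the flavin monooxygenases FMO1 and FMO5, the microsomal epoxide hydrolase EPHX1 and the carbonyl reductase CBR1 are enzymes of drug metabolism outside the cytochrome P450 family. These 6 genes were chosen by name for their enzyme class, from the 2755 genes of the panel. All 6 passed the filter on low counts that left 2205 genes to test.

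The measurements come from fixed, paraffin-embedded livers of male B6C3F1 mice, read by TempO-Seq, an assay that counts pairs of detector probes ligated on their target RNA. The mice were 4 weeks old when dosing began and drank either plain water or dichloroacetic acid (DCA) at 3.5 g/L. The design asks which changes of expression outlast an exposure that stops and which need an exposure that goes on. The 4 control groups, Control-10, Control-32, Control-57 and Control-78, drank water for 10, 32, 57 or 78 weeks and were then sampled. The S1 mice drank DCA for 10 weeks and then water, and were sampled at week 10 (S1-10), 32 (S1-32), 57 (S1-57) or 78 (S1-78), so that S1-10 had no time on water. The S2 mice drank DCA for 32 weeks and were sampled then (S2-32) or after 46 further weeks on water (S2-78). The S3 mice drank DCA for 57 weeks and were sampled then (S3-57) or after 21 further weeks on water (S3-78). The Direct-78 mice drank DCA for all 78 weeks.

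Carboxylesterases split esters and amides, and the CES2 forms are found in the endoplasmic reticulum of liver and intestine, where they activate or clear ester drugs and act on acylglycerols. Flavin monooxygenases add oxygen to nitrogen and sulfur atoms, FMO5 also acts as a Baeyer-Villiger oxidase, EPHX1 opens reactive epoxides to diols, and CBR1 reduces ketones, quinones and carbonyl lipids with NADPH. In mouse liver the genes of this kind are known targets of the nuclear receptors CAR and PXR and of NRF2, and several differ between the sexes.

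The 13 groups kept 68 of 78 deposited libraries: 6 in most groups, 5 in S3-57, 4 in Control-10, S2-78 and S3-78, and 3 in Direct-78. The paper excluded the 10 others because their ranking of genes strayed too far from the average one. The shallowest kept library had a total of 541245 counts and the deepest 4285848, around a median of 2162678. In the control groups the median total was 1930474 at week 10, 1987260 at week 32, 2875740 at week 57 and 3505220 at week 78. Along the S1 groups the median total was 1965692 at week 10, 3285609 at week 32, 2659690 at week 57 and 2684484 at week 78. They were 2426391 in S2-32, 1390515 in S2-78, 1584078 in S3-57, 1359656 in S3-78 and 671116 in Direct-78. Every S1-32 library was deeper than every Control-32 library, and every S3-57, S3-78 and Direct-78 library was shallower than every control of its week, so depth and treatment cannot be told apart in these 4 comparisons.

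Levels are given as CPM, counts brought to one common scaled library total. They compare a gene with itself between libraries, not with another gene. The median count per library was 1384 for CES2A, 137 for FMO1, 2275.5 for FMO5, 2364.5 for EPHX1 and 36 for CBR1. CES2H had a median of 8 counts and none in 22 of the 68 libraries.

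The labelled tissue was checked against 20 hepatocyte markers, of which 12 were on the panel. All 12 had counts, and the most abundant was APOE at a mean of 31586 CPM. Some libraries stood apart. Mouse 68 of Control-10 had a summed hepatocyte marker level of 49885 CPM, against 132539 to 146123 CPM in the other 3 libraries of its group. Summed pancreatic acinar markers, 13 of 15 on the panel, reached 5848 CPM in S1-10 mouse 17, 3706 in S1-32 mouse 19, 26004 in S1-78 mouse 36 and 15936 in S2-78 mouse 47, against at most 687 in the others. The S1-10 calls of members that turned on mouse 68 are given with and without it. No member lost or gained a call against the controls of its week when the 4 libraries with pancreatic markers were left out together. Calls of other genes were not refitted in this way.

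FMO5 was the member called most often, lower in 6 of the 9 treated groups than in the controls of the same week, and it lay below 0 without a call in S1-10, S2-32 and S2-78. CES2A was lower and CBR1 higher in S3-78 and Direct-78, CES2H was called lower in Direct-78 alone, and EPHX1 was lower at weeks 10 and 32 in the S1 mice. FMO1 was called in no treated group. A gene was called at a Benjamini-Hochberg adjusted p of at most 0.05 and a fold change over 1.5, from an edgeR quasi-likelihood fit of all 2205 genes with TMM scaling.

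Counts of called members stand here beside the share of all tested genes called in the same comparison. In S1-10 against Control-10, 2 of 6 members were called, EPHX1 and CBR1, both lower, against 5.49% of all genes. Without Control-10 mouse 68, 0 of the 2205 genes were called there, so every S1-10 call in this text was lost without that library. The log2 fold changes of the called members EPHX1 and CBR1 shrank to -1.30 and -1.38. Some other folds stayed about as large, with ACAA1B at -3.45 and then -3.63, and HP at 1.96 and then 1.80. In S1-32, 2 of 6 were called, FMO5 and EPHX1, both lower, against 29.1%. The S1-32 share of the members was close to that of the panel. FMO5 was the 1 of 6 called, lower, in S1-57 (1.59% of all genes) and in S1-78 (1.81%). In S2-32, 0 of 6 were called by edgeR against 10.7%. Unadjusted p was under 0.05 for 1 member and 627 of all 2205 genes, and DESeq2 called 1 member and 393 of all genes. The member was CES2H in both cases. In S2-78, 0 of 6 were called by edgeR against 1.63%. Unadjusted p was under 0.05 for 2 members and 344 of all genes, and DESeq2 called 0 members and 97 of all genes. FMO5 was again the 1 of 6 called in S3-57, lower, against 6.39%. In S3-78, CES2A and FMO5 were lower and CBR1 higher, 3 of 6, against 13.3%. In Direct-78, CES2A, CES2H and FMO5 were lower and CBR1 higher, 4 of 6, against 24.4%. The comparisons at week 78 share their 6 control libraries.

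**Figure D1:**
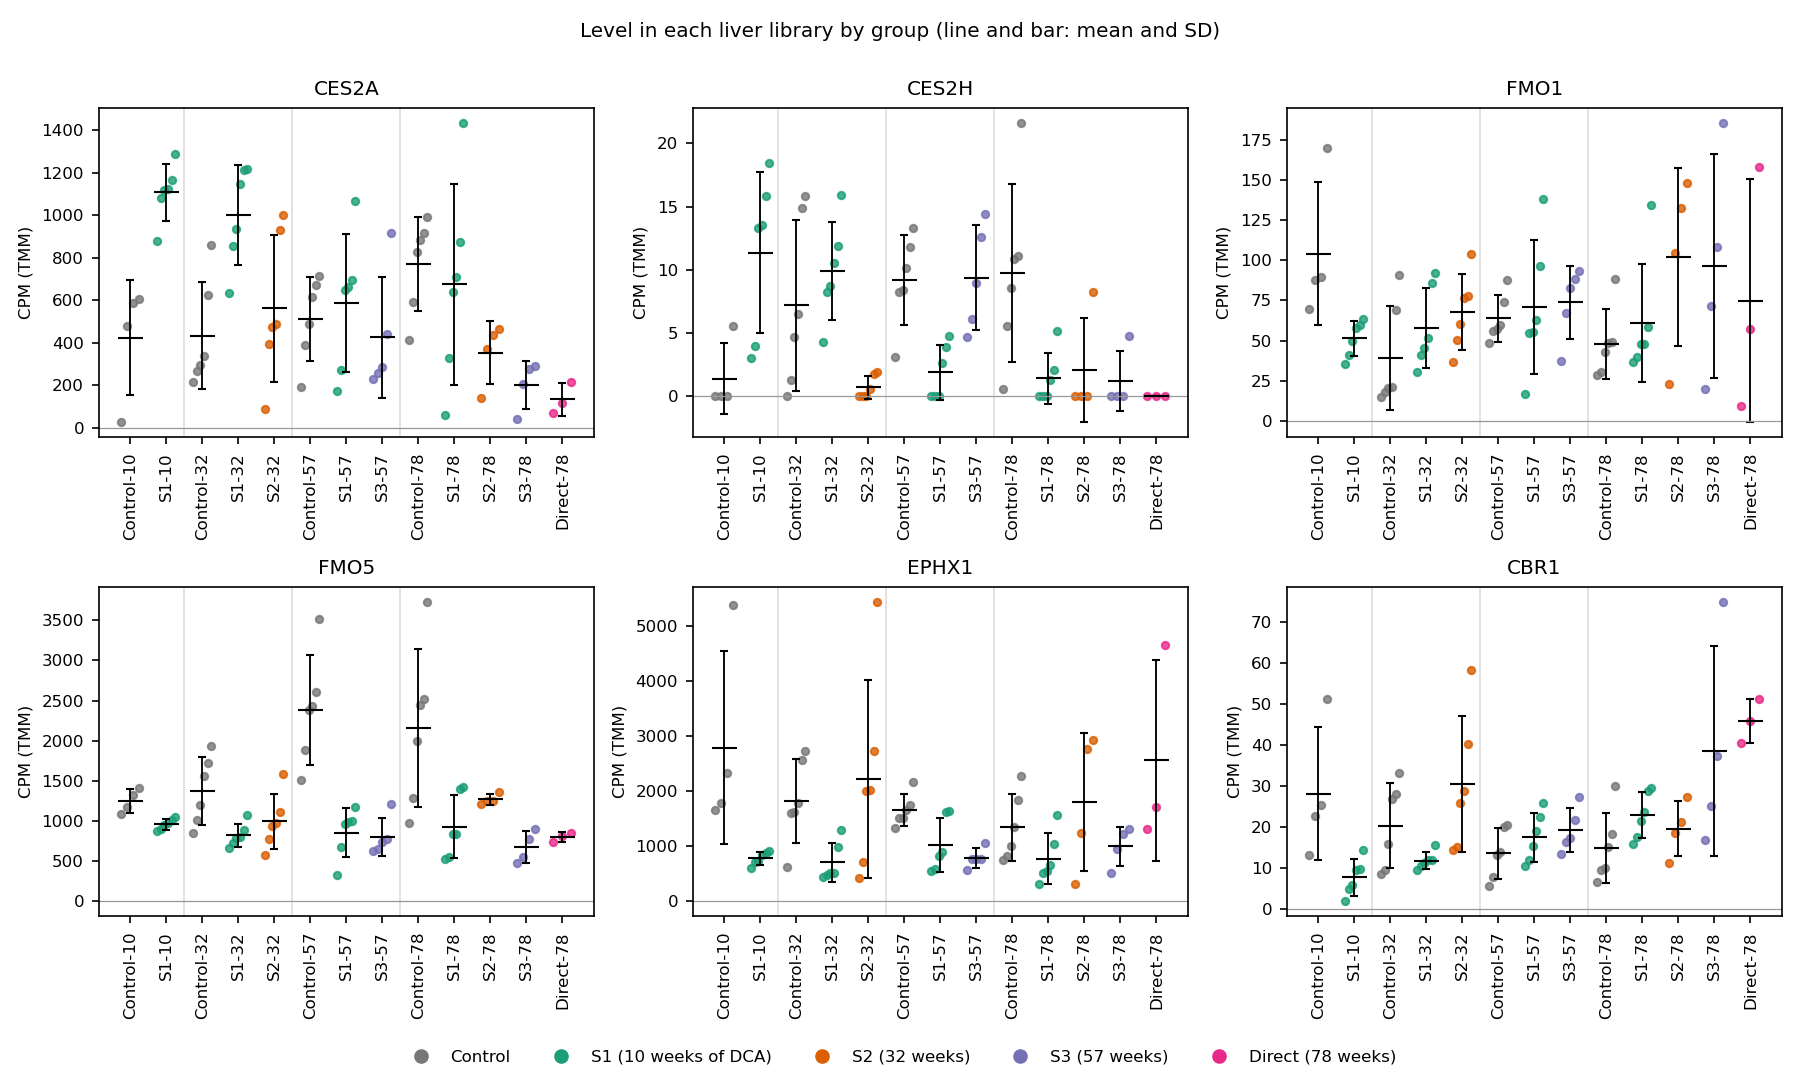
CPM of each member in every kept library (points) by group, with the group mean (line) and SD (bar). The FMO5 points of S1-57 and S3-57 lie below all of Control-57, and CES2H has no counts in any Direct-78 library.

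Scaling moved the centre of some comparisons. Over all 2205 genes the median log2 fold change in Direct-78 was -0.33 with TMM, 0.07 with RLE and 0.12 with upper-quartile factors. Relative to the TMM median, the Direct-78 changes were -2.20 for CES2A, -1.10 for FMO5, 1.26 for EPHX1 and 1.96 for CBR1. The same medians were 0.07, 0.27 and 0.34 in S3-78, 0.05, -0.07 and -0.24 in S1-32, and 0.06, 0.27 and 0.24 in S2-78. They were -0.03, -0.11 and -0.16 in S1-10, 0.07, 0.18 and 0.19 in S1-57, and 0.05, -0.06 and -0.17 in S2-32. In the comparisons of treated groups with controls and of continued with stopped DCA, no member's direction changed between the 3 scalings and no call was lost.

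**Figure D2:**
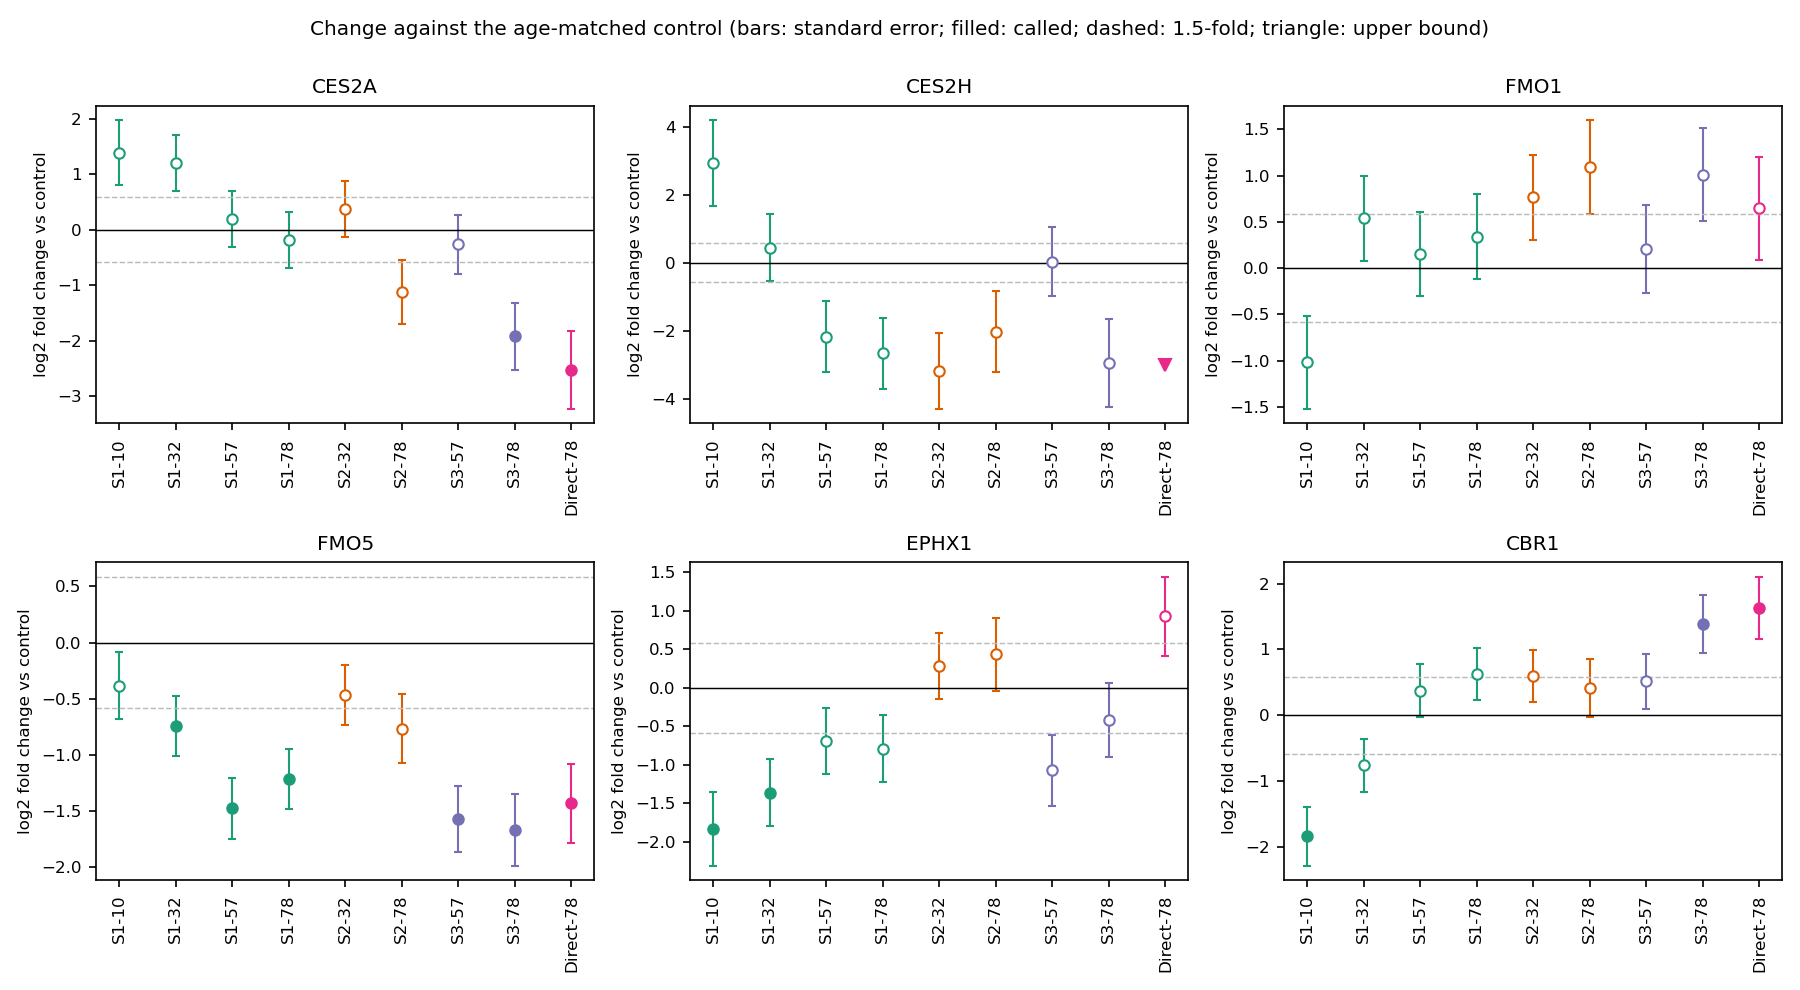
Log2 fold change of each member in each treated group against the control group of its week, with bars of 1 SE, filled points for calls and dashed lines at 1.5-fold; the triangle marks an upper bound for CES2H in Direct-78, which had no counts. FMO5 lies below 0 in all 9 groups.

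CES2A, a liver and intestine carboxylesterase, and CES2H lie at the ends of one gene cluster. In GRCm38 the 8 Ces2 genes span 287.2 kb of chromosome 8, all on the + strand, with Ces2a (104734003 to 104741634) opening the cluster and Ces2h (105000853 to 105021178) closing it. Over the aligned bases, the Ces2a transcript was 83.7% identical to Ces2b and 79.2% to Ces2h. Of 1911 windows of 50 bases in the Ces2a transcript, 22.2% also occurred in another gene's transcript, 399 of them in Gm7208, while the Ces2h share was 0.167%. The probe sequences are not in the files, so which windows the probes cover is unknown.

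The start windows of this pair are shown because both genes were lower in Direct-78. A start window from RefSeq (GRCm38.p6), 250 bases before to 50 after the start, was matched for 5 of the 6 members, all but FMO1. Capitals mark matches on either strand to TGACNNNGC (held by 12.4% of 32851 such windows), TNGCGTG (5.07%), AGGTCA (16.3%), AGTTCA (14%) or TATAAA (13.6%). TGACNNNGC can overlap TGACCT, the other strand of AGGTCA. CES2A is chr8:104733753-104734052 and CES2H is chr8:105000580-105000879, both on the + strand and written 5′ to 3′.
CES2A: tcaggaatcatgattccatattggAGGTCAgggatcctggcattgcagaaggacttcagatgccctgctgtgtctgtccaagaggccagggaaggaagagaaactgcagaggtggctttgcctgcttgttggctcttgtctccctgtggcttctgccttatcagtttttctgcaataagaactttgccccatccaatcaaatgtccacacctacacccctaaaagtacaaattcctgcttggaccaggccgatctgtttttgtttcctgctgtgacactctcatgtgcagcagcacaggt
CES2H: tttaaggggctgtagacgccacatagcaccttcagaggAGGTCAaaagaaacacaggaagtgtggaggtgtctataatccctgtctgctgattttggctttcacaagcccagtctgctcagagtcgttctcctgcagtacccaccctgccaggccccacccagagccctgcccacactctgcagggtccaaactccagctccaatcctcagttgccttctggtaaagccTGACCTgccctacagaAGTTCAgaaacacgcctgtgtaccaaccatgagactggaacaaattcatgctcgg
Counted from the start, the CES2A window held AGGTCA at -226. The CES2H window held AGGTCA at -212 and, on the opposite strand (written TGACCT), at -21, and AGTTCA at -5. These are matches of letters, and the other motifs are not in these windows.

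CES2A was high in the young S1 mice and low in the old mice with long exposure. In Control-10 it measured 25.96, 479, 586 and 608 CPM, the lowest being mouse 68. In S1-10 it ran from 877 to 1288 CPM, with a median of 1124 (n = 6). All 6 treated libraries lay above all 4 controls, so the groups did not overlap. The log2 fold change of 1.39 (SE 0.59) was not called (edgeR adjusted p 0.154), and without mouse 68 it was 0.99 (adjusted p 0.64).

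At week 32 CES2A measured 218 to 859 CPM in Control-32 (median 316) and 633 to 1220 CPM in S1-32 (median 1042, n = 6 each). Of the S1-32 libraries, 4 of 6 lay above every control. The log2 fold change was 1.20 (SE 0.51, adjusted p 0.0627), not called by edgeR but called by DESeq2 (1.15, adjusted p 0.0335). It was also called with only the 2 compared groups in the model (1.17, adjusted p 0.0184) and without Control-32 mouse 74 (1.52, adjusted p 0.0215). With the log2 total count as a covariate it was 0.30 (adjusted p 0.823). S2-32, still on DCA at that week, measured 87.9 to 999.7 CPM (median 482), spanning the whole control range.

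At week 57 the groups overlapped. Control-57 ran from 190.3 to 717 CPM (median 554), S1-57 from 172 to 1068 CPM (median 655), and S3-57 measured 229, 258, 287, 442 and 915 CPM. Neither treated group was called.

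At week 78 CES2A measured 411 to 992 CPM in Control-78 (median 856, n = 6). S3-78 measured 42.4, 206, 276 and 289 CPM, and Direct-78 measured 68.2, 116 and 217 CPM. All 7 of these treated libraries lay below the lowest control. S2-78 measured 141, 372, 438 and 464 CPM, with 2 of 4 below every control, and S1-78 ran from 61.7 to 1437 CPM (median 675), wider than the controls on both sides.

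CES2A fell by 1.92 on the log2 scale in S3-78 (SE 0.60, adjusted p 0.0239) and fell by 2.53 in Direct-78 (SE 0.70, adjusted p 0.00827). The Direct-78 value is a 5.77-fold lower level. In S2-78 the log2 fold change was -1.12 (adjusted p 0.342) and in S1-78 -0.19 (adjusted p 0.918), neither called. The S3-78 call was lost without S3-78 mouse 55 (-1.93, adjusted p 0.0688) or mouse 59 (-1.58, adjusted p 0.109), and the Direct-78 call without mouse 64 (-2.21, adjusted p 0.0684). With the log2 total count as a covariate CES2A was -0.64 in S3-78 (adjusted p 0.576) and 0.06 in Direct-78 (adjusted p 0.982), so the direction turned in Direct-78.

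Hepatocyte markers moved with these groups. Their summed level ran from 108083 to 171052 CPM in Control-78 (median 130223), and was 66779, 75723, 76122 and 89462 CPM in S3-78 and 69873, 71152 and 100930 CPM in Direct-78, with no overlap. Of the 12 markers, APOE fell in S3-78 and APOE, ASS1, FGB and HNF4A fell in Direct-78. When 1 library was left out, 1 to 2 markers were called lower in S3-78 and 0 (without mouse 64) to 5 in Direct-78. Their part in the CES2A result was not tested, and in bulk tissue fewer hepatocytes cannot be told apart from less RNA per hepatocyte. Over the 68 libraries, which share groups and weeks, Pearson's r of log2 CES2A with log2 total count was 0.614, and 0.479 within groups.

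**Figure D3:**
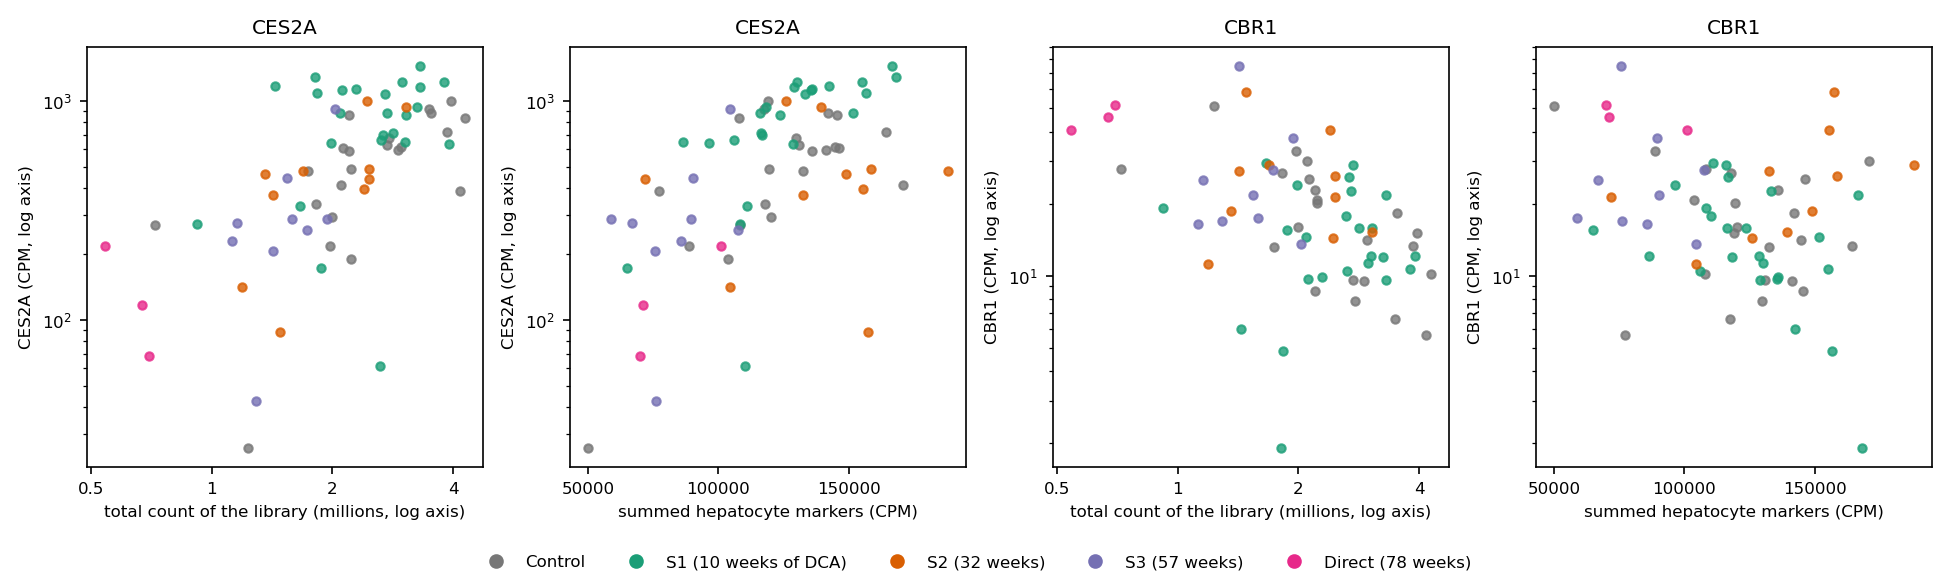
CPM of CES2A and CBR1 (log axes) against the total count of the library (log axis) and against the summed CPM of 12 hepatocyte markers, 1 point a library, coloured by length of exposure. The 3 Direct-78 libraries, at the left of the depth axis, have low CES2A and high CBR1.

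CES2H was scarce, so its values rest on few counts. Its highest count in any library was 71. In Control-10 it measured 0, 0, 0 and 5.60 CPM, and in S1-10 3.02 to 18.4 CPM (median 13.5, n = 6). Each S1-10 library had counts, and 4 of 6 lay above every control. The log2 fold change of 2.92 (SE 1.27) was not called (adjusted p 0.169), and it was 2.54 (adjusted p 0.587) without mouse 68. Without mouse 69, the 1 control with counts, it was called (adjusted p 0.0173), but the remaining controls were then all at 0 and the fold is not measured.

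At week 32 CES2H was low in the mice still on DCA. Control-32 ran from 0 to 15.9 CPM (median 5.58), S1-32 from 4.30 to 15.9 CPM (median 9.63) and S2-32 from 0 to 1.94 CPM (median 0.293, n = 6 each). Of the S2-32 libraries, 3 of 6 had no CES2H counts. In S2-32 the log2 fold change against Control-32 was -3.19 (SE 1.12, adjusted p 0.0529), not called, and it was called with RLE (adjusted p 0.041), upper-quartile factors (adjusted p 0.0311), DESeq2 (adjusted p 0.0127) and the log2 total count as a covariate (adjusted p 0.0248). It was also called without Control-32 mouse 73 (adjusted p 0.0324), Control-32 mouse 74 (adjusted p 0.0245) or S2-32 mouse 38 (adjusted p 0.0487). With all 78 libraries it was not called, at -3.23 (adjusted p 0.14), nor without Control-32 mouse 75, at -2.86 (adjusted p 0.125).

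At week 57 Control-57 ran from 3.10 to 13.3 CPM (median 9.29), S1-57 from 0 to 4.74 CPM (median 1.34), and S3-57 measured 4.67, 6.15, 8.93, 12.6 and 14.5 CPM. The S1-57 libraries lay low, 4 of 6 below every control, while S3-57 lay within the control range or just above it. Neither group was called, at -2.18 (adjusted p 0.334) and 0.03 (adjusted p 0.998).

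At week 78 CES2H had counts in all 6 Control-78 libraries, 0.604 to 21.6 CPM (median 9.69). S1-78 ran from 0 to 5.18 CPM (median 0.642), S2-78 measured 0, 0, 0 and 8.22 CPM, and S3-78 measured 0, 0, 0 and 4.77 CPM. Direct-78 had no CES2H counts in its 3 libraries. All 4 treated groups had low medians, and all but Direct-78 overlapped the controls.

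CES2H was called in Direct-78 alone (adjusted p 0.0283). Taking 3 counts over the group as the floor, 1.20 CPM, it was at least 8.08-fold lower than the Control-78 mean. In single Direct-78 libraries that floor was 2.96 CPM for mouse 64, 4.05 for mouse 65 and 4.05 for mouse 66. Without any 1 of them the bound would be lower. The call was lost without Control-78 mouse 85 (adjusted p 0.0534) or Direct-78 mouse 64 (0.103), 65 (0.0643) or 66 (0.0908), and with the log2 total count as a covariate (adjusted p 0.737). With all 78 libraries the log2 fold change was 0.33 (adjusted p 0.833), since the 3 Direct-78 libraries that the authors' normalized table leaves out held 28, 24 and 9 CES2H counts, or 42.03, 18.3 and 15.4 CPM on the scaling of all 78, where the highest Control-78 library had 22.07. In S3-78 CES2H was called (adjusted p 0.015) without mouse 59, which left that group at 0.

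FMO1, the flavin monooxygenase on chromosome 1 (162829561 to 162866610, - strand), was called in no treated group by edgeR, though 3 of its 9 comparisons had an unadjusted p under 0.05, and DESeq2 called none. Its log2 fold change was above 0 in 8 groups and below it in S1-10. Control-10 measured 69.8, 87.5, 89.6 and 169.9 CPM, the highest being mouse 68, and S1-10 ran from 35.7 to 63.5 CPM (median 54.03, n = 6). All 6 S1-10 libraries lay below all controls. The log2 fold change was -1.02 (SE 0.50, adjusted p 0.236), and it was called with only the 2 compared groups in the model (-1.07, adjusted p 0.0481). Without mouse 68 it was -0.68 (adjusted p 0.749).

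At week 78 FMO1 spread widely in the mice with longer exposure. Control-78 ran from 28.9 to 88.4 CPM (median 45.6), S2-78 measured 23.3, 104.6, 132 and 148 CPM, and S3-78 measured 19.6, 71.6, 108 and 186 CPM. Direct-78 measured 9.46, 57.3 and 158 CPM. In each of these groups 1 library lay below every control, while 3 of 4 in S2-78, 2 of 4 in S3-78 and 1 of 3 in Direct-78 lay above every control. The log2 fold change was 1.10 in S2-78 (SE 0.50, adjusted p 0.275), 1.01 in S3-78 (adjusted p 0.175) and 0.65 in Direct-78 (adjusted p 0.389). In Direct-78 the sign turned without mouse 65 (-0.31, adjusted p 0.733).

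FMO5, the flavin monooxygenase on chromosome 3 (97628804 to 97655282, + strand), was called lower in treated groups at weeks 32, 57 and 78 and not at week 10. Control-10 measured 1083, 1178, 1328 and 1413 CPM, and S1-10 ran from 876 to 1046 CPM (median 963, n = 6). The groups did not overlap, yet the log2 fold change was -0.38 (SE 0.30, adjusted p 0.485), not called.

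At week 32 FMO5 ran from 849 to 1933 CPM in Control-32 (median 1381), 665 to 1079 CPM in S1-32 (median 792) and 576 to 1592 CPM in S2-32 (median 961). Of the S1-32 libraries 4 of 6 lay below every control, and of the S2-32 libraries 2 of 6. FMO5 fell by 0.74 in S1-32 (SE 0.27, adjusted p 0.0333), and in S2-32 the value was -0.47 (adjusted p 0.228). The S1-32 call was lost with all genes tested (-0.64, adjusted p 0.0678), all 78 libraries (-0.79, adjusted p 0.304), the log2 total count as a covariate (-0.86, adjusted p 0.115), and without Control-32 mouse 77 (-0.68, adjusted p 0.0512) or S1-32 mouse 22 (-0.73, adjusted p 0.0553).

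At week 57 both treated groups lay wholly below the controls. Control-57 ran from 1510 to 3512 CPM (median 2406), S1-57 from 335 to 1177 CPM (median 979), and S3-57 measured 626, 655, 738, 784 and 1215 CPM. FMO5 was thus low in mice that had been on water for 47 weeks and in mice still on DCA. It fell by 1.48 in S1-57 (SE 0.27, adjusted p 0.00117) and fell by 1.57 in S3-57 (SE 0.29, adjusted p 0.000386). Both calls were lost with all 78 libraries, at -1.48 (adjusted p 0.439) and -1.84 (adjusted p 0.0888), and that of S1-57 with only the 2 compared groups (-1.52, adjusted p 0.104). Both were kept with the log2 total count as a covariate, at -1.44 (adjusted p 0.00239) and -1.47 (adjusted p 0.00209). Every S3-57 library was shallower than every Control-57 library, so the covariate cannot separate depth from treatment in S3-57.

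At week 78 FMO5 ran from 975 to 3732 CPM in Control-78 (median 2222). S1-78 ran from 532 to 1427 CPM (median 837), S2-78 measured 1215, 1248, 1256 and 1363 CPM, and S3-78 measured 474, 558, 780 and 908 CPM. Direct-78 measured 734, 814 and 855 CPM. S3-78 and Direct-78 lay below every control, 4 of 6 S1-78 libraries did, and S2-78 lay inside the control range.

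FMO5 fell by 1.21 in S1-78 (SE 0.27, adjusted p 0.00609), 68 weeks after its DCA ended. It fell by 1.67 in S3-78 (SE 0.32, adjusted p 0.000365) and fell by 1.43 in Direct-78 (SE 0.35, adjusted p 0.00324), and in S2-78 the value was -0.77 (SE 0.30, adjusted p 0.183). The S3-78 call was kept under all 9 alternative settings and in all 10 fits that left out 1 library. The covariate among those settings cannot separate depth from treatment in S3-78, whose libraries were all shallower than the controls. The S1-78 call was lost with all 78 libraries (-1.25, adjusted p 0.532) and with only the 2 compared groups (-1.21, adjusted p 0.183), and the Direct-78 call with only the 2 compared groups (-1.37, adjusted p 0.0581) and with the log2 total count as a covariate (-1.14, adjusted p 0.226).

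EPHX1 and CBR1 were the pair that was lower together in S1-10, and their start windows are shown for that reason. Ephx1 lies on chromosome 1 (180976210 to 181020904, - strand) and Cbr1 on chromosome 16 (93605853 to 93610505, + strand). The windows are chr1:181017520-181017819 on the - strand for EPHX1 and chr16:93607587-93607886 on the + strand for CBR1, from RefSeq (GRCm38.p6), written 5′ to 3′ with the motif letters given above in capitals.
EPHX1: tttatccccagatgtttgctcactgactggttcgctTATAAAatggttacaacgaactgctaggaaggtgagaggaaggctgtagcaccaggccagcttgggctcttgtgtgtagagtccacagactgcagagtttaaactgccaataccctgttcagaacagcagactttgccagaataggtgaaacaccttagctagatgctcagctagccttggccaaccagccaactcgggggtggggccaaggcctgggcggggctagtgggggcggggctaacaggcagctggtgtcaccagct
CBR1: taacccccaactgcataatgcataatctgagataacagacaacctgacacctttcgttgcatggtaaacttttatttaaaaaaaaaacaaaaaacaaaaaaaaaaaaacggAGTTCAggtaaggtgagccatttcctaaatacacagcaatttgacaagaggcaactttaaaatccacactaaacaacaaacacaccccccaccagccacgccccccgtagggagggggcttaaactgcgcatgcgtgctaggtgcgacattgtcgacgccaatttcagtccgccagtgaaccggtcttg
The EPHX1 window held TATAAA at -214 and the CBR1 window AGTTCA at -139. GC made up 54.3% and 44% of the bases, against a median of 52.7% over all windows.

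EPHX1, which hydrolyses reactive epoxides, was low right after 10 weeks of DCA. It measured 1663, 1798, 2336 and 5385 CPM in Control-10, the highest being mouse 68, and 609 to 919 CPM in S1-10 (median 790, n = 6). All 6 S1-10 libraries lay below all 4 controls. EPHX1 fell by 1.83 (SE 0.47, adjusted p 0.017), a 3.56-fold lower level. Without mouse 68 the log2 fold change was -1.30 and the call was lost (adjusted p 0.339), as it was with all 78 libraries (-1.48, adjusted p 0.137).

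At week 32 EPHX1 was low in the stopped mice. Control-32 ran from 619 to 2741 CPM (median 1709), S1-32 from 445 to 1307 CPM (median 522) and S2-32 from 430 to 5451 CPM (median 2011). Of the S1-32 libraries 4 of 6 lay below every control, while S2-32 reached beyond the controls at both ends. EPHX1 fell by 1.36 in S1-32 (SE 0.44, adjusted p 0.0167), and in S2-32 the value was 0.29 (adjusted p 0.679). The S1-32 call was lost with all 78 libraries (adjusted p 0.129) and with the log2 total count as a covariate (-0.76, adjusted p 0.399).

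At weeks 57 and 78 EPHX1 was not called. Control-57 ran from 1336 to 2170 CPM (median 1586), S1-57 from 557 to 1653 CPM (median 862), and S3-57 measured 564, 768, 775, 775 and 1069 CPM. All 5 S3-57 libraries lay below every control. The S3-57 log2 fold change of -1.07 (SE 0.46, adjusted p 0.166) was called with only the 2 compared groups (adjusted p 0.0318) and with the log2 total count as a covariate (-1.64, adjusted p 0.0248). That covariate cannot separate depth from treatment in S3-57.

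Among the oldest mice EPHX1 ran from 750 to 2288 CPM in Control-78 (median 1186, n = 6) and 313 to 1580 CPM in S1-78 (median 604, n = 6). S2-78 measured 321, 1241, 2769 and 2935 CPM, S3-78 measured 526, 955, 1231 and 1310 CPM, and Direct-78 measured 1318, 1715 and 4659 CPM. S1-78 had 4 of 6 libraries below every control, S2-78 lay on both sides of the controls, and Direct-78 lay in their upper part or above. The log2 fold changes were -0.79 in S1-78 (adjusted p 0.423) and 0.93 in Direct-78 (SE 0.51, adjusted p 0.168), and the latter turned to -0.55 with the log2 total count as a covariate.

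CBR1, a reductase of carbonyl compounds, was low in the youngest treated mice and high in the oldest with long exposure. It measured 13.2, 22.8, 25.4 and 51.3 CPM in Control-10, the highest again mouse 68, and 1.90 to 14.5 CPM in S1-10 (median 7.83, n = 6). Of the S1-10 libraries 5 of 6 lay below every control, and the groups overlapped at mouse 15. CBR1 fell by 1.84 (SE 0.45, adjusted p 0.0102). Without mouse 68 the log2 fold change was -1.38 and the call was lost (adjusted p 0.228), and with only the 2 compared groups the adjusted p was 0.0518.

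At week 32 CBR1 ran from 8.65 to 33.2 CPM in Control-32 (median 21.4), 9.55 to 15.7 CPM in S1-32 (median 11.6) and 14.4 to 58.4 CPM in S2-32 (median 27.5). The 3 groups overlapped. S1-32 was not called at -0.76 (SE 0.40, adjusted p 0.141), except with upper-quartile factors (-1.13, adjusted p 0.0422), and S2-32 was at 0.59 (adjusted p 0.31). At week 57 Control-57 ran from 5.66 to 20.7 CPM (median 13.7) and S1-57 from 10.5 to 25.8 CPM (median 17.3). S3-57 measured 13.6, 16.5, 17.3, 21.8 and 27.5 CPM, within or above the control range, and neither group was called.

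At week 78 CBR1 ran from 6.61 to 30.03 CPM in Control-78 (median 12.6) and 15.8 to 29.5 CPM in S1-78 (median 22.7). S2-78 measured 11.2, 18.6, 21.3 and 27.4 CPM, and S3-78 measured 16.96, 25.1, 37.5 and 75.1 CPM. Direct-78 measured 40.5, 45.9 and 51.4 CPM. Direct-78 lay above every control, 2 of 4 S3-78 libraries did, and S1-78 and S2-78 lay within the control range.

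CBR1 rose by 1.38 in S3-78 (SE 0.44, adjusted p 0.0249) and by 1.63 in Direct-78 (SE 0.47, adjusted p 0.0108), a 3.10-fold higher level. The values in S1-78 (0.63, adjusted p 0.517) and S2-78 (0.41, adjusted p 0.713) were not called. The S3-78 call was lost with all 78 libraries (adjusted p 0.18), only the 2 compared groups (0.0983) and the log2 total count as a covariate (0.84, adjusted p 0.325), and without S3-78 mouse 55 (0.84, adjusted p 0.257) or Control-78 mouse 88 (0.067), 89 (0.0659) or 90 (0.0664). The Direct-78 call was lost with only the 2 compared groups (0.0587), the log2 total count as a covariate (0.49, adjusted p 0.796) and without mouse 64 (1.54, adjusted p 0.0522). Pearson's r of log2 CBR1 with log2 total count was -0.465 over the 68 libraries and -0.298 within groups, opposite in sign to that of CES2A.

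Mice still on DCA were next compared with mice of the same week whose DCA had ended. At week 32, EPHX1 and CBR1 were higher in S2-32 than in S1-32, 2 of 6 members called, against 3.54% of all genes. For EPHX1, 4 of 6 S2-32 libraries lay above every S1-32 library and mouse 37 below them all, and for CBR1, 4 of 6 lay above. EPHX1 rose by 1.65 (SE 0.44, adjusted p 0.025) and CBR1 by 1.36 (SE 0.40, adjusted p 0.0446). CES2H was lower in all 6 S2-32 libraries than in any S1-32 library, at -3.62 (SE 1.12, adjusted p 0.054), and was called by DESeq2 (adjusted p 0.0129) and with only the 2 compared groups (adjusted p 0.00386).

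These calls were easily lost. The EPHX1 call was lost in 6 of 12 fits that left out 1 library, S1-32 mouse 20, 21, 23 or 24 or S2-32 mouse 41 or 42, at most to an adjusted p of 0.158 at 1.18 without S2-32 mouse 41. The CBR1 call was lost in 10 of 12, all but those without S2-32 mouse 37 or 38, at most to 0.177 at 1.10 without mouse 41. Both were lost with all 78 libraries (1.66 and 1.37, adjusted p 0.304 for each) and with the log2 total count as a covariate (1.11, adjusted p 0.358, and 1.00, adjusted p 0.36). CBR1 was also lost with all genes tested (1.30, adjusted p 0.0673) and without the libraries with pancreatic markers (1.33, adjusted p 0.0829).

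At week 57, S3-57 against S1-57 had 0 of 6 members called by edgeR, and 0% of all genes. Unadjusted p was under 0.05 for 111 of the 2205 genes and for 1 member, CES2H, at 2.21 (SE 1.07, adjusted p 0.933), with 4 of 5 S3-57 libraries above every S1-57 library. DESeq2 called 7 of all genes and 0 members. FMO5 differed by -0.10 (SE 0.28) between these groups, which were both low against their controls.

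At week 78, the all-gene median of Direct-78 against S3-78 was -0.27 with TMM and -0.08 with RLE and upper-quartile factors, and 0 of 6 members were called by edgeR, against 5.03% of all genes. Unadjusted p was under 0.05 for 469 of all genes and for 1 member, EPHX1, and DESeq2 called 174 of all genes and 0 members. EPHX1 was higher in all 3 Direct-78 libraries than in any S3-78 library, at 1.35 (SE 0.57, adjusted p 0.141). It was 0.55 with the log2 total count as a covariate (adjusted p 0.71) and 0.74 without Direct-78 mouse 65 (adjusted p 0.478). Every Direct-78 library was also shallower than every S3-78 library, so depth and exposure cannot be told apart in this comparison. The Direct-78 and S3-78 levels of CES2A, FMO1, FMO5 and CBR1 overlapped, at -0.61, -0.37, 0.24 and 0.25, and 3 of 4 S3-78 libraries were at 0 for CES2H, as were all of Direct-78.

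Whether a change itself differed between groups was tested as the difference of 2 changes, each against the controls of its own week, and called at an adjusted p of at most 0.05. Over all genes the median difference with TMM, RLE and upper-quartile factors was 0.10, 0.26 and 0.31 for S1-78 less S1-10, 0.01, 0.32 and 0.40 for S2-78 less S2-32, -0.01, 0.13 and 0.21 for S3-78 less S3-57, and -0.35, 0.14 and 0.26 for Direct-78 less S1-10. From S1-10 to S1-78, 2 of 6 members were called, against 4.22% of all genes. CBR1 was low against controls at the end of DCA and at 0.63 after 68 weeks on water, a difference of 2.47 (SE 0.60, adjusted p 0.0102). CES2H went the other way, from 2.92 to -2.67, a difference of -5.59 (SE 1.66, adjusted p 0.0407). Without Control-10 mouse 68 the CBR1 difference was 2.01 and the call was lost (adjusted p 0.107). The CES2H call was lost in 12 of 22 fits that left out 1 library (Control-10 mouse 68, 71 or 72, Control-78 mouse 85 or 90, S1-10 mouse 15, 16, 17 or 18, or S1-78 mouse 31, 32 or 36), at most to an adjusted p of 0.151 without mouse 68. It was also lost with all genes tested (0.0561) and without the libraries with pancreatic markers (0.0678).

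From S2-32 to S2-78, 0 of 6 members were called by edgeR, against 0.499% of all genes. Unadjusted p was under 0.05 for 0 members and 405 of all genes, and DESeq2 called 0 members and 126 of all genes. From S3-57 to S3-78, 0 of 6 were called and 0% of all genes, while 162 genes and 1 member, CES2A, had an unadjusted p under 0.05, and DESeq2 called 1 of all genes and 0 members. The CES2A value there was -1.66 (SE 0.78, adjusted p 0.666). For FMO5 the difference was -0.30 (SE 0.40) in S2 and -0.10 (SE 0.41) in S3.

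Between 10 weeks of DCA and 78 weeks of it, 4 of 6 members differed in their change, where 33.8% of all genes did. CES2A differed by -3.91 (SE 0.91, adjusted p 0.00121), EPHX1 by 2.76 (SE 0.69, adjusted p 0.00224) and CBR1 by 3.47 (SE 0.65, adjusted p 0.000104). CES2H was called too (adjusted p 0.00391), with counts in every S1-10 library and none in Direct-78. All 4 calls were lost with the log2 total count as a covariate, to adjusted p of 0.552 for CES2A, 0.501 for CES2H, 0.636 for EPHX1 and 0.251 for CBR1, and those of CES2H (0.133) and EPHX1 (0.103) with all 78 libraries.

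FMO1 missed the threshold in that last comparison at 1.66 (SE 0.75, adjusted p 0.0762). It was called with RLE (2.09, adjusted p 0.0195), upper-quartile factors (2.17, adjusted p 0.0158) and DESeq2 (2.09, adjusted p 0.0134). It was also called without Control-78 mouse 86 (2.03, adjusted p 0.0282) or Direct-78 mouse 66 (2.26, adjusted p 0.0194). The value shrank to 0.58 with all 78 libraries (adjusted p 0.648), 0.78 without Direct-78 mouse 65 (adjusted p 0.435) and 1.32 without Control-10 mouse 68 (adjusted p 0.212). FMO5, at -1.05 (SE 0.45, adjusted p 0.0637), was called with all 78 libraries (-1.73, adjusted p 0.0475) and without Control-78 mouse 90 (-1.16, adjusted p 0.0447). Over the alternative settings it ran from -1.73 to -0.47, and it was -0.75 with the log2 total count as a covariate (adjusted p 0.599). Without Direct-78 mouse 65 it was -0.78 (adjusted p 0.193).

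Across the 4 control ages, 0 of 6 members were called by edgeR, against 5.12% of all genes. Unadjusted p was under 0.05 for 2 members (FMO1 and FMO5) and 444 of all genes, and DESeq2 called 1 member and 257 of all genes. The control means of FMO5 were 1251 CPM at week 10, 1379 at week 32, 2387 at week 57 and 2160 at week 78, with an edgeR adjusted p of 0.0542 and 0.0487 by DESeq2. The edgeR value was 0.49 with all 78 libraries, 0.229 with only the compared groups, 0.179 with the log2 total count as a covariate and 0.119 without Control-57 mouse 82, and was at most 0.05 without Control-32 mouse 77 (0.0371) or 78 (0.05), Control-57 mouse 79 (0.0347), or Control-78 mouse 85 (0.0264) or 90 (0.0472). FMO1 was highest in Control-10, at 104 CPM, and lowest in Control-32, at 39.2 CPM (adjusted p 0.224). The Control-10 means include mouse 68, without which that of FMO1 was 82.3 CPM.

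Ordered by mean level over the 13 groups, CES2A was highest in S1-10 (1110 CPM, SD 134) and lowest in Direct-78 (134, SD 76.1), an 8.29-fold span (6.66 to 12.04 when any 1 library was left out). CBR1 spanned 5.90-fold from Direct-78 to S1-10 (5.12 to 7.13), and FMO5 3.51-fold (3.18 to 3.95) from Control-57, or Control-78 in some of those orders, to S3-78. For CES2H, FMO1 and EPHX1 the ends of the order turned on single libraries. Control-10 led both only with mouse 68, and the next group for EPHX1, Direct-78, held mouse 65 at 4659 CPM beside 1318 and 1715. CES2H ran from 11.4 CPM in S1-10 to 0 in Direct-78, but with 1 library left out Control-78 could be highest, and S2-78, S3-78 or Control-10 could be lowest. For each of the 6 genes all 12 pairs of neighbours in the order overlapped, so the order is firm only over larger steps.

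The members did not move as one group. Over the 68 libraries, which share groups and weeks, Pearson's r of the log2 levels was 0.441 for CES2A with CES2H (0.174 within groups) and -0.579 for CES2A with CBR1 (-0.301 within groups). FMO1 and EPHX1 gave 0.365, and 0.518 within groups, the highest of the 15 pairs there. FMO1 and FMO5 gave 0.0749 (0.255 within groups).

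The genes most like each member were taken as the 3 with the highest r over the 68 libraries, among 1756 or 1757 other genes. CES2A was most like KLKB1, the plasma prekallikrein gene (r 0.923, 0.895 within groups), SERPINA3K (0.921) and ABCB11, the bile salt export pump (0.913). EPHX1 was most like ACAA1B, a peroxisomal thiolase (0.849, 0.783 within groups), HSD17B11, a steroid dehydrogenase (0.821), and GSTA2, a glutathione transferase (0.783). FMO1 was most like CNN3 (0.703), NR1I2, which encodes PXR (0.681), and NR1I3, which encodes CAR (0.673). FMO5 was most like UGT1A6A, a glucuronosyltransferase (0.736), TMEM50A (0.668) and EPHX2, the soluble epoxide hydrolase (0.662), with r of 0.5001, 0.342 and 0.441 within groups. CBR1 and CES2H had weaker likeness, up to 0.597 with 2810403A07RIK and 0.616 with AW112010. The points of these r share their groups and depth.

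Genes chosen for likeness over these libraries share low and high groups by that choice, so their changes describe the pattern and do not test it. Of the genes like EPHX1, HSD17B11 fell by 2.57 in S1-10 and fell by 2.09 in S1-32, ACAA1B fell by 3.45 and fell by 4.14, and GSTA2 fell by 2.89 and fell by 2.15. Their S1-10 calls were all lost without Control-10 mouse 68, at -1.80 (adjusted p 0.103), -3.63 (0.0761) and -1.84 (0.454), and the S1-32 call of GSTA2 in 4 of 12 fits that left out 1 library, at most to 0.0543. HSD17B11 also rose by 1.41 in Direct-78, lost in 8 of 9 such fits (at most to 0.105). Of the genes like FMO5, TMEM50A fell by 0.98 in S1-32, fell by 1.35 in S1-57, fell by 1.62 in S3-57 and fell by 1.23 in S3-78, each kept in all fits that left out 1 library. It also fell by 0.72 in S2-32, lost in 7 of 12 such fits (at most to 0.137), and fell by 0.92 in Direct-78, lost in 5 of 9 (at most to 0.249) and with RLE (-0.51, adjusted p 0.254) and upper-quartile factors (-0.47, adjusted p 0.308). UGT1A6A fell by 1.10 in S1-57 (lost in 5 of 12, at most to 0.0805), fell by 1.05 in S3-57 (2 of 11, 0.086), fell by 1.23 in S3-78 (kept in all 10) and fell by 0.96 in Direct-78, lost in 7 of 9 (at most to 0.227) and with RLE (-0.57, adjusted p 0.189) and upper-quartile factors (-0.51, adjusted p 0.258). Of those like CES2A, SERPINA3K fell by 3.36 in S3-78 and fell by 3.61 in Direct-78, the latter lost in 2 of 9 such fits, at most to an adjusted p of 0.0552. ABCB11 rose by 1.81 in S1-32, kept in all 12, and fell by 2.52 in Direct-78, lost in 2 of 9 (at most to 0.0938). KLKB1 fell by 1.26 in Direct-78, lost in 3 of 9 (at most to 0.144) and with RLE (-0.86, adjusted p 0.0743) and upper-quartile factors (-0.78, adjusted p 0.0962).

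Of the genes like CBR1, CES2H and FMO1, 2810403A07RIK fell by 2.20 in S1-10 (-1.57 and 0.207 without mouse 68), fell by 1.72 in S1-32 (kept in all 12 fits), and rose by 1.68 in S3-78 (lost in 2 of 10, at most to 0.0605) and by 1.98 in Direct-78 (1 of 9, 0.0687). LAMA3 rose by 2.54 in S1-10 (lost in 9 of 10, at most to 0.359), fell by 2.72 in S3-78 (lost in 2 of 10, at most to 0.0774) and was called lower in Direct-78, at 0 CPM in all 3 libraries against 26.1 to 103 CPM in Control-78 (kept in all 9 fits). HP rose by 1.96 in S1-10 (lost in 2 of 10, at most to 0.138, at 1.80 without mouse 68) and by 2.04 in S1-32 (kept in all 12). AW112010 fell by 1.71 in S1-57 (lost in 9 of 12, at most to 0.166) and fell by 2.06 in S3-57 (kept in all 11). CNN3 rose by 1.04 in S1-32 (lost in 3 of 12, at most to 0.0745) and by 1.44 in S2-32 (kept in all 12).

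Relatives in the same families add detail. Of the other Ces2 genes, CES2G rose by 1.80 in S1-10 (adjusted p 0.0266; 1.51 and 0.302 without mouse 68) and CES2D-PS, the pseudogene of the cluster, fell by 3.26 in S1-32 (adjusted p 0.0068, kept in all 12 fits that left out 1 library). CES2B, CES2C and CES2E were called in no treated group, and CES2F did not pass the filter. CES1D, a carboxylesterase outside the cluster, fell by 2.94 in Direct-78 (adjusted p 0.0336), a call lost with RLE (-2.54, adjusted p 0.0551) and upper-quartile factors (-2.46, adjusted p 0.0605) and in 4 of 9 fits that left out 1 library. CES1G was called in no treated group.

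CBR3, the carbonyl reductase gene 72.7 kb from Cbr1, was called in the same 3 treated groups as CBR1 and in the same directions. It fell by 4.13 in S1-10 (adjusted p 0.00138) and rose by 2.79 in S3-78 (adjusted p 0.00884) and by 2.15 in Direct-78 (adjusted p 0.0429). These calls turned on single libraries. Without Control-10 mouse 68, at 269.6 CPM, the S1-10 value was -1.59 (adjusted p 0.454), and without S3-78 mouse 59 the S3-78 value was 1.13 (adjusted p 0.379). The Direct-78 call was lost in 7 of 9 fits that left out 1 library, at most to 0.161 at 1.70 without mouse 65. In the transcripts, 1 of 1188 windows of 50 bases in Cbr1 also occurred in Cbr3, and 48 in Gm5678.

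EPHX2 was called lower in S3-57 and S3-78. It fell by 1.08 in S3-57 (adjusted p 0.0499, lost in 8 of 11 fits that left out 1 library, at most to 0.16 without Control-57 mouse 83) and fell by 1.21 in S3-78 (adjusted p 0.0249). The latter was lost with upper-quartile factors (adjusted p 0.0532) and in 2 of 10 fits that left out 1 library, at most to 0.118 without S3-78 mouse 59.

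**Figure D4:**
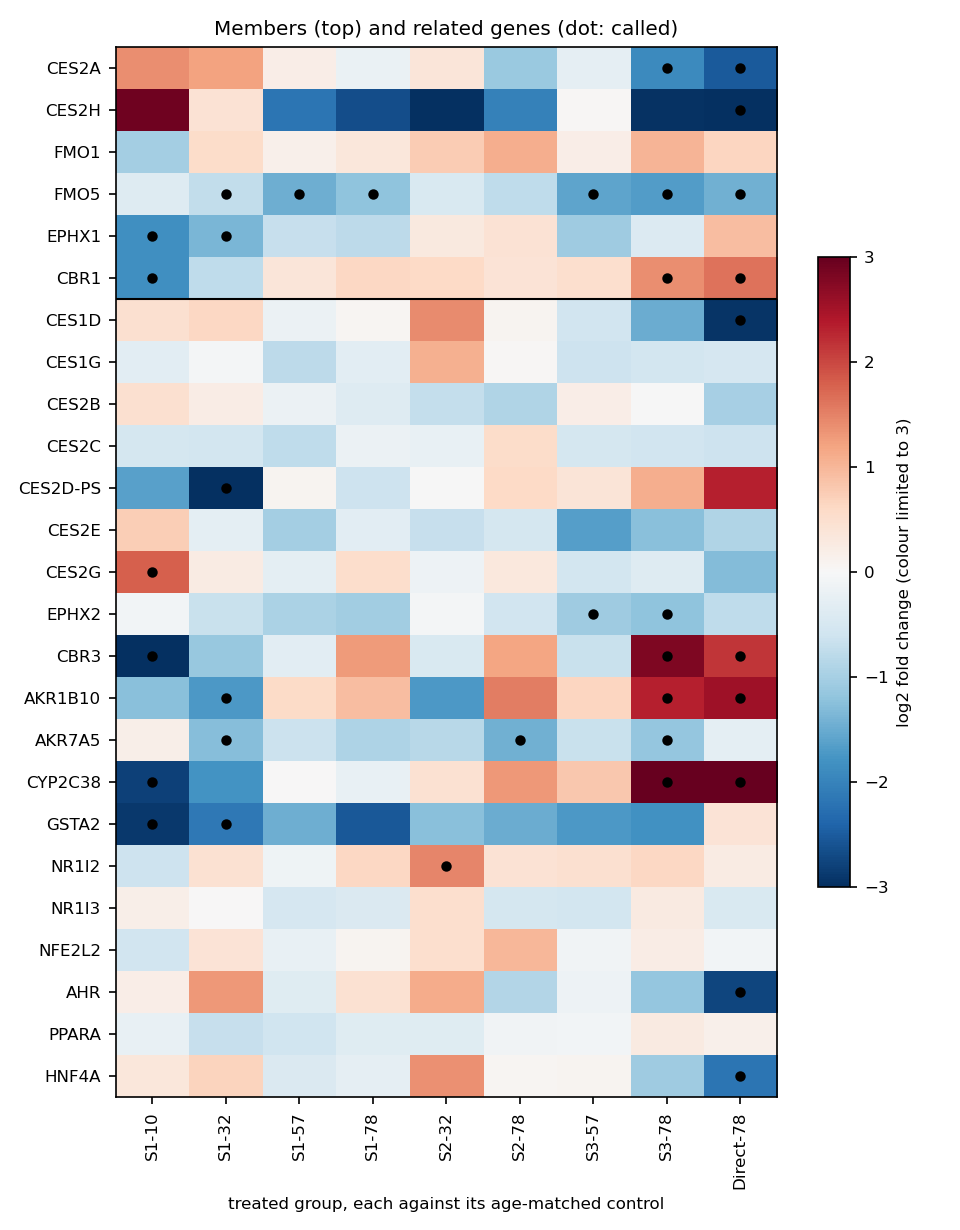
Heat map of log2 fold changes against the control of the same week for the 6 members, their relatives, listed enzymes and regulators, with colour limited to 3 in size and a dot where a gene was called. CBR3 and CYP2C38, like CBR1, are called lower (blue) in S1-10 and higher (red) in S3-78 and Direct-78.

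Of 67 listed phase I enzymes outside P450 and the 6 members, 18 were tested. They counted 1 higher and 1 lower in S1-10 (11.1%, against 5.49% of all genes), 3 and 3 in S1-32 (33.3% against 29.1%), 0 and 1 in S2-78 (5.56% against 1.63%) and in S3-57 (5.56% against 6.39%), and 3 and 2 in S3-78 (27.8% against 13.3%) and in Direct-78 (27.8% against 24.4%), with none in S1-57, S1-78 or S2-32. In S1-32, S3-57 and Direct-78 these shares were close to those of the panel. Their median log2 fold change was -0.08 in S1-10, -0.17 in S1-32, -0.29 in S1-57, 0.04 in S1-78, -0.10 in S2-32, 0.22 in S2-78, -0.53 in S3-57, -0.47 in S3-78 and -0.83 in Direct-78. Over all tested genes it was -0.33 in Direct-78 and between -0.03 and 0.07 in the other groups. AKR1B10, an aldo-keto reductase, fell by 1.72 in S1-32 and rose by 2.34 in S3-78 and by 2.54 in Direct-78. Those calls were lost in 8 of 12, 4 of 10 and 1 of 9 fits that left out 1 library, at most to adjusted p of 0.186, 0.0737 and 0.234. AKR7A5, an aflatoxin aldehyde reductase, fell by 1.27 in S1-32, fell by 1.45 in S2-78 and fell by 1.17 in S3-78, the last lost without S3-78 mouse 59 (-0.92, adjusted p 0.0854).

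Targets of CAR and PXR, 19 tested, counted 0 higher and 4 lower in S1-10 (21.1%, against 5.49% of all genes), 0 and 1 in S1-32 (5.26% against 29.1%), 1 and 0 in S2-78 (5.26% against 1.63%), 2 and 0 in S3-78 (10.5% against 13.3%), 3 and 2 in Direct-78 (26.3% against 24.4%) and none in the others. Their median log2 fold change was 0.16 in S1-10, -0.06 in S1-32, -0.34 in S1-57, -0.23 in S1-78 and 0.81 in S2-32. It was -0.15 in S2-78, 0.06 in S3-57, -0.32 in S3-78 and 0.40 in Direct-78. CYP2C38, a P450 of that list, fell by 2.80 in S1-10, lost in 5 of 10 fits that left out 1 library (adjusted p 0.394 without mouse 68), and rose by 3.47 in S3-78 and by 3.68 in Direct-78, kept in all such fits. Targets of NRF2, 26 tested, counted 0 higher and 3 lower in S1-10 (11.5%), 1 and 5 in S1-32 (23.1%), 3 and 6 in S3-78 (34.6%) and 3 and 7 in Direct-78 (38.5%), against 5.49%, 29.1%, 13.3% and 24.4% of all genes. They counted 0 and 1 in S1-78 (3.85% against 1.81%) and in S2-32 (3.85% against 10.7%), 0 and 2 in S3-57 (7.69% against 6.39%), and none in S1-57 or S2-78. None of the S1-10 calls of these 2 lists was kept without mouse 68. The median log2 fold change of the NRF2 targets was -0.27 in S1-10, 0.02 in S1-32, -0.35 in S1-57, -0.18 in S1-78, 0.20 in S2-32, 0.02 in S2-78, -0.02 in S3-57, -0.31 in S3-78 and -0.05 in Direct-78.

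Among the 17 tested regulators, 0 were higher and 2 lower in S1-10 (11.8%, against 5.49% of all genes), 3 and 1 in S1-32 (23.5% against 29.1%), 1 and 0 in S2-32 (5.88% against 10.7%), 1 and 1 in S3-78 (11.8% against 13.3%), 0 and 4 in Direct-78 (23.5% against 24.4%) and none in the others. NR1I2 rose by 1.47 in S2-32 (adjusted p 0.0032), kept in all 12 fits that left out 1 library. AHR fell by 2.75 in Direct-78 (adjusted p 0.0244; 0.0501 with upper-quartile factors, and lost in 3 of 9 fits that left out 1 library, at most to 0.0849). HNF4A, also on the hepatocyte list, fell by 2.19 there (adjusted p 0.0137, lost in 2 of 9 such fits, at most to 0.0888). NR1I3, NFE2L2 and PPARA, which encode CAR, NRF2 and PPAR alpha, were called in no treated group.

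These counts by list moved with single libraries. When 1 library was left out, the share of all genes called ran from 16.9% to 40.2% in S1-32, 5.49% to 22.8% in S2-32, 6.71% to 14.3% in S3-78 and 9.80% to 28.7% in Direct-78. In the same 4 groups the shares ran from 16.7% to 38.9%, 0% to 33.3%, 11.1% to 33.3% and 5.56% to 33.3% for the phase I enzymes, and 0% to 21.1%, 0% to 15.8%, 5.26% to 21.1% and 10.5% to 31.6% for targets of CAR and PXR. For targets of NRF2 they ran from 11.5% to 42.3%, 0% to 30.8%, 15.4% to 34.6% and 15.4% to 38.5%. For the regulators they ran from 17.6% to 41.2%, 5.88% to 29.4%, 5.88% to 23.5% and 0% to 35.3%. The share of all genes also ran from 0% to 6.85% in S1-10, 0.272% to 1.63% in S1-57 and 0.907% to 3.4% in S1-78. It ran from 0.998% to 2.09% in S2-78 and 2.49% to 8.34% in S3-57, where the phase I share ran from 0% to 16.7%.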

How the data were processed

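TempO-Seq probe counts of 2755 genes in 78 mouse liver libraries were deposited by the authors, who aligned reads with Bowtie in Partek. The authors' normalized values are a signal, count plus 1 over a median-ratio factor for each library, deposited for 68 libraries; those 68 were used, and the 10 others left out. The filtered table holds the same values for the 2205 genes tested here. Counts were fitted with edgeR 4.0.16 (TMM, quasi-likelihood, 13 groups in 1 model) in R 4.3.3, with 17 contrasts and Benjamini-Hochberg adjustment over all genes; the code was tested on simulated data. SE is the log2 fold change over the square root of F.

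Alternatives were RLE and upper-quartile factors, DESeq2 1.42.0, all genes with counts, all 78 libraries, only the compared groups, log2 total count as a covariate, adjusted p alone and leaving out 1 library. Leaving out the 4 libraries with pancreatic markers, and leaving out 1 library for the lists and the order of means, were chosen after the values were seen. Named genes were the 3 most like each member, relatives, 6 set regulators, and listed genes called in at least 3 treated contrasts. The members and the lists (enzymes, CAR and PXR, NRF2, regulators, sex bias, cell types) were chosen with earlier results of these data known. Figures used Python 3.11.15 and matplotlib 3.10.9. Floors cover counting error only.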

Additional observations from a re-analysis of the deposited data

Results flagged for a closer look

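Within groups of 4 to 6 libraries, 72 sets of values were searched for 1 library far from the rest, at a level that flags about 5% of sets by chance, and 6 were found. CES2H was at 5.60 CPM in Control-10 mouse 69, 8.22 CPM in S2-78 mouse 45 and 4.77 CPM in S3-78 mouse 59, each in a group whose other 3 libraries were at 0. Beside 3 values tied at 0 any count stands as far apart as it can, so the 5% does not apply to these sets. FMO1 was at 88.4 CPM in Control-78 mouse 86, where the next library had 48.9 CPM, and at 134 CPM in S1-78 mouse 32, where the next had 58.4 CPM. FMO5 was at 1215 CPM in S3-57 mouse 50, where the next had 784 CPM.

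The change against controls differed between groups in 6 cases. From S1-10 to S1-78 the difference was -5.59 for CES2H (edgeR adjusted p 0.0407) and 2.47 for CBR1 (0.0102). From S1-10 to Direct-78 it was -3.91 for CES2A (0.00121), 2.76 for EPHX1 (0.00224) and 3.47 for CBR1 (0.000104), and CES2H, without counts in Direct-78, had an adjusted p of 0.00391.

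The 8 treated libraries absent from the normalized table, which the paper excluded for straying in their ranking of genes, had totals of 244409 to 658155 counts. They gave 48 values of the members, of which 5 were above and 33 below every kept control of their week, all on the scaling of all 78 libraries. CES2H was at 33.4 CPM in S3-78 mouse 58 and 42.03 CPM in Direct-78 mouse 61, where the highest control had 22.07 CPM. CBR1 was at 81.4 CPM in S2-78 mouse 46, 34.5 CPM in Direct-78 mouse 61 and 61.9 CPM in Direct-78 mouse 62, where the highest control had 31.5 CPM. The 33 low values were all 8 of CES2A (0 to 230 CPM), 7 of FMO5, 6 each of FMO1 and EPHX1, and 3 each of CES2H and CBR1. S3-78 mouse 57 had no counts for any of the 6 genes.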

How the results depend on the processing

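Of 1667 refits of the members' results, 1516 kept their direction and their side of the threshold, 82 lost a call (2 of them with a change of sign), 31 gained one and 38 others changed sign. RLE and upper-quartile factors, DESeq2 and adjusted p alone lost no call and turned no sign. The 947 fits that left out 1 library held 45 of the lost calls and 20 of the turned signs. Of the other settings, with at most 81 fits each, all 78 libraries (12 lost, 7 turned) and the log2 total count as a covariate (14 lost, 13 turned) had the most, each with 1 result in both counts. Over all genes, 0 were called in S1-10 without Control-10 mouse 68. The cause was not tested. Low counts limit CES2H most, and in single libraries CBR1 (as few as 3 counts) and FMO1 (as few as 7). Without S3-78 mouse 59, CES2H in Direct-78 against S3-78 gave no value, as neither group had counts.

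With all 78 libraries, calls were lost for CBR1 in S3-78, CES2H in Direct-78, and CES2H and EPHX1 in Direct-78 minus S1-10, while FMO5 gained one in the last. With the same 78 libraries the number of members called was 1 in S1-10, and 0 in S1-32, S1-57, S1-78, S3-57 and S2-32 against S1-32. The sign turned there, to a log2 fold change of -0.17 for CES2H in S3-57, -0.0426 for FMO1 in S3-57, 0.33 for CES2H in Direct-78, -0.0300 for FMO1 in Direct-78, -0.18 for FMO1 in S3-57 against S1-57, -0.0797 for CBR1 in S3-57 against S1-57 and 1.15 for CES2H in Direct-78 against S3-78. With all genes with at least 1 count tested, the number of members called was 1 in S1-32, S2-32 against S1-32 and S1-78 minus S1-10. With the log2 total count as a covariate, the number of members called was 0 in S1-32, Direct-78, S2-32 against S1-32 and Direct-78 minus S1-10, and 1 in S2-32 and S3-78, and 2 in S3-57. The sign turned there, to a log2 fold change of -1.20 for CES2H in S1-32, 0.20 for CES2A in S1-78, -0.0342 for CES2A in S2-32, 0.0287 for CES2A in S2-78, -0.19 for EPHX1 in S2-78, -0.0619 for CBR1 in S2-78, 0.59 for CES2A in S3-57, 0.0631 for CES2A in Direct-78, -0.55 for EPHX1 in Direct-78, 0.0329 for CES2A in S3-57 against S1-57, -0.11 for CBR1 in S3-57 against S1-57, 0.70 for CES2A in Direct-78 against S3-78 and -0.36 for CBR1 in Direct-78 against S3-78. With only the compared groups in the model, the number of members called was 0 in S1-57 and S1-78, and 2 in S3-57 and Direct-78. CES2A in S1-32 and CES2H in S2-32 against S1-32 also gained a call there, and CBR1 in S3-78 lost its call. In S1-10, CBR1 lost its call and FMO1 gained one. With RLE factors, the number of members called was 1 in S2-32, and FMO1 gained a call in Direct-78 minus S1-10. With upper-quartile factors, the number of members called was 1 in S2-32, and CBR1 in S1-32 and FMO1 in Direct-78 minus S1-10 gained a call. With DESeq2, the number of members called was 1 in S2-32 and the control ages, 3 in S1-32 and S2-32 against S1-32, and 5 in Direct-78 minus S1-10. Over all genes DESeq2 called 393, 257, 847, 147 and 864 in these comparisons, in the same order. For the other settings in this paragraph the all-gene counts are not given. Without the libraries with pancreatic markers, chosen after the values were seen, the number of members called was 1 in S2-32 against S1-32 and S1-78 minus S1-10.

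When 1 library was left out, the number of members called ranged from 0 to 3 in S1-10, 1 to 3 in S1-32, 0 to 1 in S2-32, 1 to 3 in S3-78 and 1 to 4 in Direct-78. It ranged from 0 to 2 in S2-32 against S1-32, 0 to 1 in the control ages, 0 to 2 in S1-78 minus S1-10 and 4 to 5 in Direct-78 minus S1-10. The log2 fold change ranged, with a change of sign, from -0.0628 to 0.39 for CES2A in S1-57, -0.15 to 0.36 for FMO1 in S1-57, -0.56 to 0.0539 for CES2A in S1-78, -0.0737 to 0.60 for FMO1 in S1-78, -0.21 to 0.50 for EPHX1 in S2-32, -0.22 to 0.20 for CES2H in S3-57, -0.31 to 1.19 for FMO1 in Direct-78, -0.16 to 0.36 for FMO1 in S3-57 against S1-57, -0.29 to 0.0184 for FMO5 in S3-57 against S1-57, -0.0218 to 0.26 for CBR1 in S3-57 against S1-57, -1.30 to 0.25 for FMO1 in Direct-78 against S3-78 and -0.000117 to 0.79 for CBR1 in Direct-78 against S3-78.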

Other observations

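Genes known to differ between male and female mouse liver had most of their treated-group calls in S3-78 and Direct-78. In S3-57, which had as many weeks of DCA as S3-78, 1 gene of each list was called. Whether the groups differ in this was not tested. Of 7 tested male-biased genes, 4 were lower in S3-78 (57.1%, against 13.3% of all genes; C8B, CYP2D9, ELOVL3 and MUP3; list median -2.14) and 3 in Direct-78 (42.9% against 24.4%; C8B, ELOVL3 and MUP3; median -2.65). Of 4 tested female-biased genes, 3 were higher in S3-78 (75%; CYP17A1, CYP2A4 and SULT3A1; median 4.25) and 2 in Direct-78 (50%; CYP2A4 and SULT3A1; median 2.88). The medians over all tested genes were 0.07 and -0.33. When 1 library was left out, 2 to 5 male-biased genes were lower in S3-78 and 1 to 3 in Direct-78, and 1 to 3 female-biased genes were higher in S3-78 and 2 in Direct-78.

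In the other groups at most 1 gene of each list was called, though the list medians moved in some. The male-biased medians were 1.19 in S1-10, -0.14 in S1-32, -0.15 in S1-57 and -0.73 in S1-78. They were -0.77 in S2-32, -1.51 in S2-78 and -0.64 in S3-57. The female-biased medians were -0.80, -0.32, 0.76 and 1.21 in those S1 groups, and 1.35, 1.24 and 2.37 in S2-32, S2-78 and S3-57. SERPINE2, male-biased, was higher in S1-10 and lower in S2-78, and C8B was lower in S2-32 and S3-57. SULT3A1 was lower in S1-32 and higher in S3-57. S1-57 and S1-78 had none.

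Listed markers of liver cell types and of pancreas were called in every treated group, in small numbers. In S1-10 (5.49% of all genes called), HP of 12 hepatocyte, CD4 of 6 lymphocyte and AMY1 of 8 pancreatic markers were higher, and COL1A1 and TIMP1 of 8 stellate and fibroblast markers lower. In S1-32 (29.1%), 4 hepatocyte (CPS1, FGB, FGG and HP), 3 of 7 macrophage (C1QA, C1QC and CD68), 1 of 5 endothelial (KDR) and 1 pancreatic marker (CELA2A) were higher. In S2-32 (10.7%), CD68, COL1A1 and COL3A1 were higher. In S1-57 (1.59%) LYZ2, a macrophage marker, was lower, and in S3-57 (6.39%) APOE, VIM and AMY1 were.

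At week 78, COL1A1, COL1A2 and COL3A1 and 5 pancreatic markers were higher in S1-78 (1.81%), and COL1A1 and COL1A2 and 3 pancreatic markers in S2-78 (1.63%). In S3-78 (13.3%), 2 lymphocyte markers (CD48 and CORO1A) were higher, and APOE, AMY1 and ALAS2, 1 of 3 erythroid markers, lower. In Direct-78 (24.4%), 3 of 4 cholangiocyte markers (CLDN7, KRT19 and SPP1) were called, 2 higher and 1 lower. Of the pancreatic list, AMY1 and ZG16 were called, 1 higher and 1 lower. APOE, ASS1, FGB, HNF4A, CD68, CD4 and ALAS2 were lower.

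These marker calls moved with single libraries. None of the S1-10 calls was kept without Control-10 mouse 68. When 1 library was left out, 0 (as without Control-78 mouse 87) to 7 pancreatic markers were higher in S1-78 and 0 (without S2-78 mouse 47) to 4 in S2-78. Their summed level was 26004 CPM in S1-78 mouse 36 and 15936 in S2-78 mouse 47. The group medians were 424 CPM in S1-78 and 313 in S2-78, against 518 in Control-78. The stellate and fibroblast markers kept 3 in S1-78 and had 1 to 3 in S2-78 and in S2-32. In S1-32, 2 to 5 hepatocyte and 2 to 5 macrophage markers were higher. In S3-78, 0 to 2 lymphocyte markers were higher. In Direct-78 the hepatocyte, cholangiocyte, lymphocyte and pancreatic markers all had 0 called without mouse 64, and the erythroid marker stayed lower in all 9 fits.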
